A study of Mus musculus with 24 samples.

Results

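Sncg encodes gamma-synuclein, a small soluble protein of the synuclein family, and it is 1 of the 16118 genes of the deposited table, of which 16005 were kept after a filter on low reads. The gene was chosen by its measured values: it stood out in these same animals by its higher level after delayed weaning. Its weaning and age differences are therefore given as a description, with no test, and the 1 contrast free of those animals, sex at postnatal day 21, was tested. Poly(A) RNA of subcutaneous inguinal white adipose tissue was sequenced from 24 mice, 1 library per mouse, with no pooling stated. Males and females were taken at postnatal day 21 (p21), or at day 28 (p28) after standard weaning (SW, removed from the mother at p21) or delayed weaning (DW, left with the mother), giving 6 groups of 4 animals. The labels of the p21 animals also carry SW, without saying whether they had left the mother when taken. Below, SW means the p28 animals only. No transgene, drug or genotype is named for any group, and the labels used here name no strain. Litters are not given either, so animals were treated as independent, and p-values measure the spread between these animals and not between litters. If littermates share a group, it holds fewer than 4 independent units, which could not be checked.

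Synucleins bind lipid membranes and are best known from nerve endings, where SNARE proteins fuse vesicles with membranes. Gamma-synuclein is abundant in sensory and sympathetic neurons and also in white fat cells, where its RNA is known to follow fat cell size and leptin. In fat cells it has been linked to SNARE assembly and to access of adipose triglyceride lipase (Pnpla2) to the lipid droplet.

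The gene lies on chromosome 14 on the minus strand, at 34092231 to 34096746 in the coordinates of the authors' table, whose build is not given in the sources used here. In GENCODE M21 on GRCm38 the same gene spans chr14:34370274-34374789, covers 4516 bases and has 5 exons. Its start faces that of Mmrn2, an endothelial matrix gene on the plus strand, and 675 bases lie between the gene models. The stretch just upstream of Sncg, inside this shared interval, is shown because the interval separates a gene that was higher after delayed weaning from a neighbour that was not called between DW and SW animals with all animals in the fit. It is 130 bases at chr14:34374790-34374919, minus strand, read 5′ to 3′ from the RefSeq promoter table for GRCm38.p6, all in lower case because no searched motif was found in it.
Sncg upstream: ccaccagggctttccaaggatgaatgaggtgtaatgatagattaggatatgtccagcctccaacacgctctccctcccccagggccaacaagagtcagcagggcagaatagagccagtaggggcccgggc
The stretch is 56.9% G and C. Both strands were searched for TATAAA, which 6.5% of 32851 upstream windows of the same length hold, for CCAAT (17.5%), for GGGCGG (14%) and for the E-box CACGTG (2.39%). The cyclic AMP response element TGACGTCA (0.262%) and the spaced direct repeat bound by PPAR proteins (0.00609%) were searched likewise. None of the 6 motifs occurs in this window, which says only that they are not in it. The other windows are the first 130 bases of each promoter sequence and were not aligned to each gene's GENCODE start.

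Sncg was read deeply in every library, with 4833 to 43220 recovered reads. Values are the authors' normalised values, that is reads divided by a factor of each sample. In DW males Sncg was 278.7 in animal 79, 289.6 in animal 80, 195.1 in animal 86 and 292.4 in animal 87, with a mean of 263.9 ± 46.3 (SD, n = 4). In SW males it was 101.9 in animal 78, 67.7 in animal 84, 96.1 in animal 85 and 152.4 in animal 124, with a mean of 104.5 ± 35.3 (SD, n = 4). In p21 males it was 143.0 in animal 37, 163.8 in animal 38, 92.1 in animal 53 and 135.2 in animal 54, with a mean of 133.5 ± 30.2 (SD, n = 4). All 4 DW males thus lay above all 8 other males, whose own 2 groups overlapped.

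In DW females Sncg was 359.7 in animal 76, 327.1 in animal 77, 202.1 in animal 82 and 193.6 in animal 83, with a mean of 270.6 ± 85.1 (SD, n = 4). In SW females it was 119.8 in animal 73, 95.4 in animal 74, 131.5 in animal 75 and 157.1 in animal 81, with a mean of 125.9 ± 25.6 (SD, n = 4). In p21 females it was 71.8 in animal 30, 126.2 in animal 36, 191.9 in animal 55 and 199.2 in animal 56, with a mean of 147.3 ± 60.1 (SD, n = 4). All DW females lay above all SW females, while the lowest DW female and the highest p21 female overlapped. Across both sexes the lowest of the 8 DW animals, at 193.6, was above the highest of the 8 SW animals, at 157.1.

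**Figure D1:**
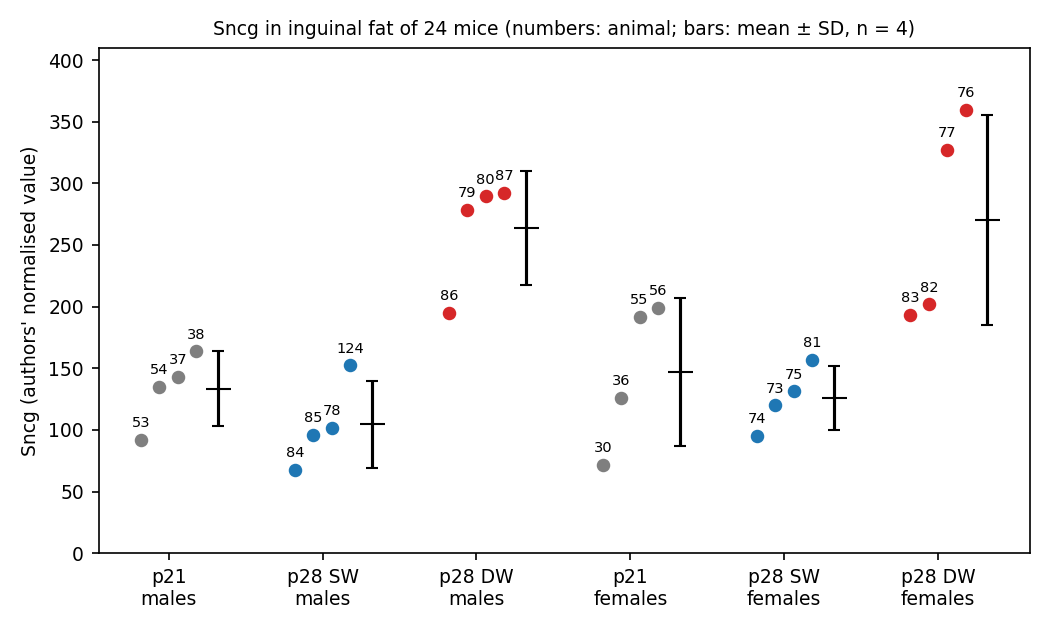
Sncg (authors' normalised value, linear axis from 0) in each of the 24 mice, with animal numbers over the points and the mean ± SD of each group of 4 beside them. The 8 DW animals lie between 193.6 and 359.7, above all 8 SW animals, and the p21 and SW groups overlap.

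From high to low the group means ran DW females, DW males, p21 females, p21 males, SW females and SW males. The first 2 groups overlapped each other, the last 4 overlapped each other, and p21 females also reached into the range of both DW groups. The ratio of means, DW over SW, was 2.53 in males and 2.15 in females. On the log2(value + 1) scale the DW minus SW difference was 1.37 in males and 1.07 in females, against a pooled within-group SD of 0.446. Without DW females 82 and 83, whose libraries stood apart as described next, the female difference was 1.46. In the authors' deposited table the log2 fold change of Sncg, DW against SW, is 1.34 in males and 1.10 in females.

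Between p21 and p28, the mean of Sncg was lower in SW animals and higher in DW animals. SW minus p21 was -0.38 on the log2 scale in males and -0.14 in females, and DW minus p21 was 0.99 in males and 0.93 in females. These differences share the p21 animals within a sex, and the SW values lie within the within-group SD. The SW female difference changed sign when p21 female 55 or 56 was left out, to 0.02 and 0.04. At p21, males minus females was -0.06 (SE 0.29, 95% interval -0.66 to 0.54, limma adjusted p = 0.971 over all genes), so a sex difference was not detectable with 4 animals a group. This value changed sign under 5 of the alternatives run, among them the fits without p21 male 53, p21 female 55 or p21 female 56.

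Library totals of recovered reads ranged from 57600711 to 302145813. A slope of log2 values on transcript GC content set 3 libraries apart, DW female 83 at -5.96, DW female 82 at -3.60 and p21 male 37 at -3.32, with the other 21 between -0.93 and 2.72. p21 male 53 had 14046 detected genes and SW male 84 had 15456, against 15778 to 15971 in the other 22. The 2 DW females with the steepest slopes were also the 2 with the lowest Sncg of their group, and over deviations from group means of all 24 animals the correlation of Sncg with the slope was 0.449. With values corrected for GC content, a setting added after seeing the data, the DW minus SW difference of Sncg was 1.40 in males and 1.24 in females. The fat cell genes Adipoq and Plin1 were high in every library, with lowest values of 787 and 909.

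Of 10 genes whose RNA is known to follow fat cell size, 1 passed the limma test for weaning in each sex, Mest in males and Nnat in females, where 0.256% of all genes were called in males and 1.27% in females. In males all 10 differences were above 0 with a median of 0.38, and in females 8 were above 0 with a median of 0.51, against medians over all genes of 0.00 and -0.02. Such a lean was not particular to this list, since the 10 Schwann cell genes, described below, also had all their male differences above 0. An unadjusted limma p under 0.05 was reached by 5 of the fat cell size genes in males and 6 in females. Of all 16005 genes, 1110 in males and 3019 in females reached it. The same totals are the background for the unadjusted weaning counts of the lists below. edgeR called none in either sex, and DESeq2 called 1 in males (Mest) and 4 in females (Mest, Nnat, Npr3 and Cav2). Of all genes, edgeR called 29 of 16005 in males and 71 of 16005 in females. DESeq2 called 111 of 15374 in males and 295 of 14138 in females. These totals are the background for the weaning calls of both tools below. Cav2, a caveola gene named after its values were seen, was 321.9 in DW female 82 and 327.2 in DW female 83, whose GC slopes stood apart, and 142.9 and 159.6 in DW females 76 and 77, within the SW range of 126.6 to 180.3.

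Mest, an imprinted gene of expanding fat, rose in DW males. It was 74.5 in animal 79, 60.002 in animal 80, 60.5 in animal 86 and 64.97 in animal 87, against 42.0 in SW animal 78, 26.7 in 84, 34.2 in 85 and 19.2 in 124. All DW males lay above all SW males, with a log2 difference of 1.12 (SE 0.22, limma adjusted p = 0.0293). The call was lost without SW male 84 or 124, or any 1 of the 4 DW males, with adjusted p between 0.0557 and 0.142, and edgeR gave 0.0574. In all, the male call was lost under 9 of the 16 alternatives run. In females Mest was 68.7 ± 20.1 in DW and 40.8 ± 10.6 in SW animals (SD, n = 4 each), and overlapped (0.73, SE 0.22, limma adjusted p = 0.117). Against p21, Mest rose in DW animals of both sexes, by 0.86 in males (SE 0.22, limma adjusted p = 0.0138, or 0.0855 with tissue list scores as covariates) and 1.20 in females (SE 0.22, limma adjusted p = 0.00152).

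Nnat, an imprinted gene of a small membrane protein, rose in DW females. It was 346.1 in animal 76, 289.6 in 77, 269.9 in 82 and 330.1 in 83, against 76.2 in SW animal 73, 139.9 in 74, 170.5 in 75 and 114.8 in 81. The groups did not overlap, and the log2 difference was 1.35 (SE 0.32, limma adjusted p = 0.0381). This call was lost without SW female 73, 74 or 81, without DW female 82 or 83, and by edgeR (adjusted p = 0.0768). In males Nnat differed by 1.05 (SE 0.32, limma adjusted p = 0.293), and SW male 124, at 413.0, lay among the DW males.

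Leptin (Lep), the hormone that fat cells release in proportion to their fat, was not called between weaning groups. DW males had 368.6 in animal 79, 241.4 in 80, 86.4 in 86 and 176.6 in 87, and SW males had 126.7 in animal 78, 57.0 in 84, 67.3 in 85 and 148.8 in 124. DW male 86, the DW male with the least Sncg, also had the least Lep of its group. The difference in males was 1.05 (SE 0.34, limma adjusted p = 0.336, or 0.0486 without DW male 86). Leaving out that animal, the DW male with the least Lep, raises the difference, and that fit called 36 of 16005 genes. In females every DW animal, at 212.4 to 290.6, lay above every SW animal, at 120.4 to 162.3, with a difference of 0.86 (SE 0.34, limma adjusted p = 0.203). Such separation of 4 from 4 animals also occurred in uncalled genes of other lists, such as the Schwann cell gene Pmp22 in males (limma adjusted p = 0.55). Its share over all genes is not given here, so it does not set a gene apart. Between p21 and SW at p28, Lep fell by 1.18 on the log2 scale in males (SE 0.34, limma adjusted p = 0.0254), a call that was lost without p21 male 37 or 38 or SW male 84 or 85. In all, that call was lost under 6 of the 16 alternatives run. Npr3, the clearance receptor of natriuretic peptides, was 142.7 ± 50.6 in DW females and 64.4 ± 11.1 in SW females (SD, n = 4 each), without overlap (1.08, SE 0.33, limma adjusted p = 0.12). Without DW female 76 the limma adjusted p in females was 0.0274 for Npr3 and 0.0316 for Mest, and without SW male 124 it was 0.0446 for Nnat in males. The fit without SW male 124, the animal that lay among the DW males for Nnat, called 35 of 16005 genes. Leaving out DW female 76 raised the genes called in females from 204 to 1996 of 16005, so a pass there was common to many genes.

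With age, few of the 10 genes passed the limma test. Lep was the only 1 called in SW males, where 11.9% of all genes were called, and Nnat the only 1 in SW females, where 11.6% were called. Nnat was 125.4 ± 39.9 in SW females and 497.4 ± 259 in p21 females (SD, n = 4 each) and fell without overlap (-1.92, SE 0.32, limma adjusted p = 0.00029). This call held with each animal left out in turn. In DW males, where 15.0% of all genes were called, Mest and the caveola gene Cavin2 rose, Cavin2 by 0.51 (SE 0.13, limma adjusted p = 0.0126), without overlap. The Cavin2 call was lost without p21 male 53, a library with fewer detected genes (limma adjusted p = 0.0584). In DW females, where 12.1% were called, Mest and Npr3 rose, Npr3 by 1.17 (SE 0.33, limma adjusted p = 0.0247), without overlap, a call lost without p21 female 30 or DW female 82 or 83. In all, the Npr3 call was lost under 5 of the 17 alternatives run.

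Other genes of fat cells gave no call for weaning. Of 17 mature adipocyte markers none was called in either sex, with medians of -0.10 in males and -0.02 in females, and 2 and 6 of them had an unadjusted limma p under 0.05. edgeR called none of the 17, and DESeq2 called only Pparg in females. Pparg, the transcription factor that drives fat cell differentiation, was 182.1 ± 15.9 in DW females and 123.3 ± 6.57 in SW females (SD, n = 4 each) without overlap (0.56, SE 0.16, limma adjusted p = 0.0872), and the male means were 163.3 and 162.5. Without DW female 76, where 1996 of 16005 genes were called, the limma adjusted p of Pparg in females was 0.0402. Adipoq, the adiponectin gene, had means of 1411 in DW and 1401 in SW males and of 1290 in DW and 1343 in SW females.

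None of 8 lipolysis genes was called for weaning by limma, edgeR or DESeq2, and 0 in males and 2 in females (Lipe and Cidec) had an unadjusted limma p under 0.05. Pnpla2, the lipase linked to gamma-synuclein, was 1616 ± 228 in DW and 1842 ± 217 in SW males and 1127 ± 691 in DW and 1548 ± 408 in SW females (SD, n = 4 each). Its female difference of -0.66 (limma adjusted p = 0.269) became -0.98 without DW female 76 (limma adjusted p = 0.0405) and 0.18 without DW females 82 and 83. In the fit without DW female 76, 1996 of 16005 genes were called. None of 9 SNARE genes was called for weaning by any of the 3 tools, and 2 in males and 4 in females had an unadjusted limma p under 0.05. Vamp2, a vesicle SNARE, was among both and was lower, at 125.4 ± 9.27 in DW and 151.6 ± 11.5 in SW males (SD, n = 4 each), without overlap. The female groups, at 110.2 ± 24.9 after delayed and 135.4 ± 12.8 after standard weaning (SD, n = 4 each), overlapped. Relative to p21, Vamp2 fell in DW males (-0.36, SE 0.12, limma adjusted p = 0.0496), a call lost without any 1 of the 8 males compared, and in DW females (-0.62, SE 0.12, limma adjusted p = 0.00228). The female call was lost without DW females 82 and 83 (-0.34, limma adjusted p = 0.0531) and when only p21 and DW females were fitted (limma adjusted p = 0.0823).

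**Figure D2:**
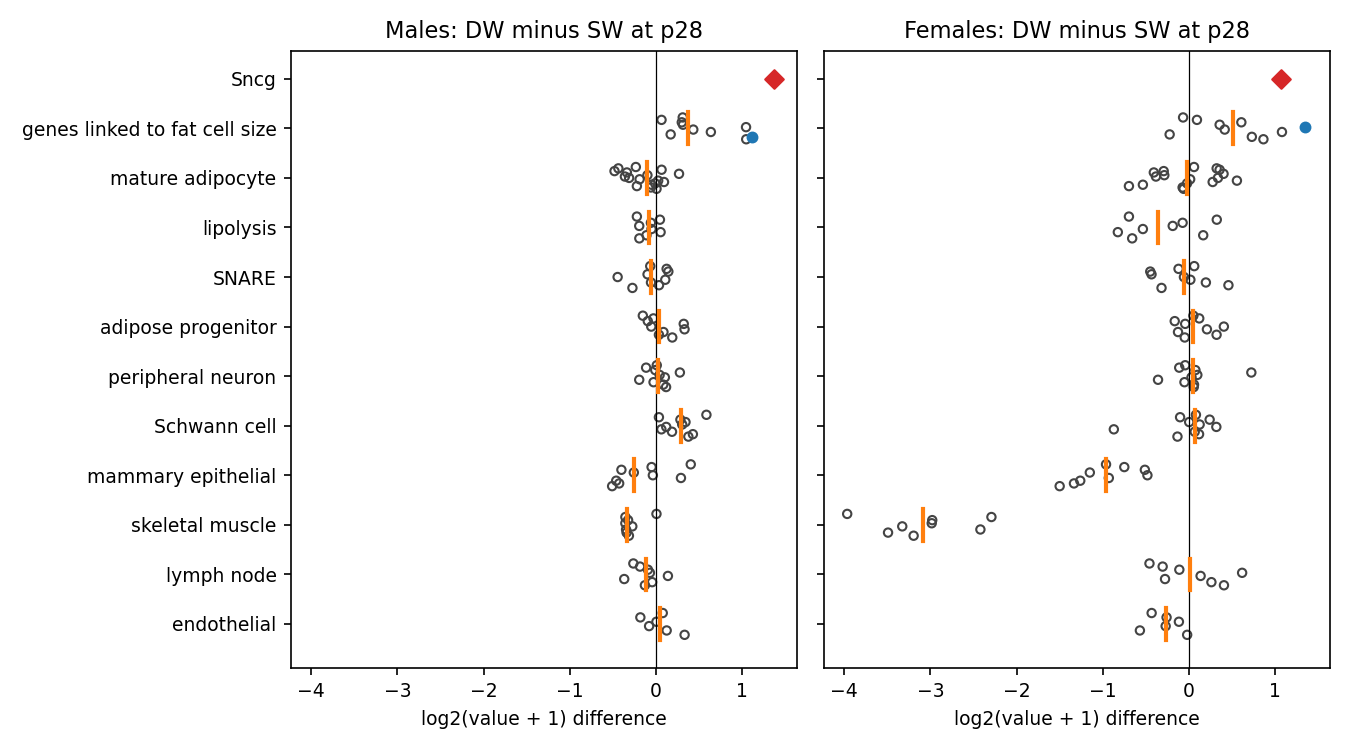
DW minus SW difference at p28 on the log2(value + 1) scale for Sncg (diamond) and each gene of the 11 lists (circles, filled where the limma adjusted p is under 0.05), males left and females right on the same axis, with the list median as an orange bar. Mest in males and Nnat in females are the filled circles, and skeletal muscle genes spread lowest in females.

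Sncg is also a neuronal gene, so markers of nerve and other tissue were measured beside it. Of 10 peripheral neuron genes tested none was called for weaning by limma, edgeR or DESeq2, and 0 in males and 2 in females (Nefh and Gap43) had an unadjusted limma p under 0.05. Their summed value was 15.0 to 17.8 in DW and 13.8 to 16.7 in SW males, and 13.6 to 17.5 in DW and 12.6 to 15.1 in SW females. The sum lay below the Sncg value in every animal. Values are not scaled for transcript length, so this does not measure how much Sncg RNA came from nerve. Tubb3, the neuronal tubulin, was between 0 and 0.51 and Prph, the peripheral intermediate filament, between 0.0733 and 0.478 over all animals, whereas Th, Dbh and Nefl were not analysed here. The 10 Schwann cell genes gave no call for weaning by any of the 3 tools, with 3 in males and 1 in females under an unadjusted limma p of 0.05. All 10 of their differences were above 0 in males (median 0.30) and 7 in females (median 0.07). They summed to 655 to 915 in DW and 554 to 770 in SW males and to 457 to 868 in DW and 564 to 735 in SW females. Whether nerve or Schwann cells had a part in the Sncg difference was not tested.

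Skeletal muscle and mammary genes differed more in level between animals than Sncg did. The 8 muscle genes gave no call for weaning by any tool, with 0 in males and 3 in females under an unadjusted limma p of 0.05, and summed to 335 to 6984 in DW and 454 to 5382 in SW males and 4.47 to 2041 in DW and 342 to 2992 in SW females. The 9 mammary epithelial genes summed to 110 to 242 in DW and 290 to 399 in SW females, without overlap, and 0 were called by any tool while 7 had an unadjusted limma p under 0.05. In males, where none had such a p, they summed to 3.52 to 14.9 in DW and 2.13 to 48.1 in SW animals. At p21, where 0.356% of all genes were called between the sexes by limma, 6 of the 9 mammary genes were called lower in males by limma, 0 by edgeR and 1 (Epcam) by DESeq2. With scores of the muscle, mammary and lymph node lists as covariates, the DW minus SW difference of Sncg was 1.42 in males and 1.09 in females. In bulk tissue, more cells that express Sncg and more Sncg RNA per cell cannot be told apart.

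Progenitor, lymph node and endothelial lists likewise gave no call for weaning by limma, edgeR or DESeq2. At an unadjusted limma p under 0.05 they had 1, 0 and 1 genes in males and 1, 1 and 2 genes in females, of 9, 8 and 6.

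Besides Sncg, 9 genes of the table lie within 250 kb of it (Npy4r, Gprin2, Syt15, Shld2, Glud1, Fam25c, Mmrn2, Bmpr1a and Ldb3), and none overlaps it. None was called for weaning in males and 1 in females, where 0.256% and 1.27% of all genes were called. Mmrn2, which starts opposite Sncg across the interval shown above, was 67.1 ± 2.98 in DW and 63.6 ± 6.87 in SW males (0.08, SE 0.16, limma adjusted p = 0.998) and 47.6 ± 11.2 in DW and 63.7 ± 10.4 in SW females (-0.43, SE 0.16, limma adjusted p = 0.194), all SD with n = 4. In females its mean was thus lower in DW animals, where Sncg was higher. The call passed without DW female 76 (limma adjusted p = 0.046), a fit in which 1996 of 16005 genes were called. Relative to p21, Mmrn2 rose by 0.53 in DW males (SE 0.16, limma adjusted p = 0.0336), a call lost without p21 male 37 or 53 or any 1 of the 4 DW males.

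Fam25c, which lies 14841 bases downstream of Sncg, was the neighbour called lower in DW females, a call lost under 11 of the 17 alternatives run. It was 3.18 in animal 76, 2.47 in 77, 0.838 in 82 and 0.51 in 83, against 3.11 in SW animal 73, 3.17 in 74, 4.49 in 75 and 5.06 in 81. The groups overlapped through animal 76, and the log2 difference was -0.96 (SE 0.21, limma adjusted p = 0.0267). edgeR gave an adjusted p of 0.447 and DESeq2 of 0.489. The call was also lost without SW female 75 or 81 or DW female 82 or 83, and without DW females 82 and 83 the difference was -0.36 (limma adjusted p = 0.74). In males Fam25c was at most 0.268. The 2 lowest DW values fell in the 2 females whose GC slopes stood apart.

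Correlations over the 24 animals were computed on log2(value + 1) and are descriptions, since the weaning difference that chose Sncg enters them, and the animals share tissue, platform and the 6 groups. For each of 7 genes taken for their fat cell, lipolysis and proliferation roles, Pearson's r and Spearman's rho are given, with r again over deviations from the 6 group means, which removes group differences. Lep gave r = 0.557, rho = 0.545 and 0.42 over deviations, and r = 0.389 without SW males 84 and 85, the 2 animals farthest from the median of Lep. Mest gave r = 0.565, rho = 0.566 and -0.265 over deviations, and r = 0.633 without SW male 124 and DW female 82. Mki67, the antigen of dividing cells, gave r = 0.742, rho = 0.74 and 0.0474 over deviations, and r = 0.775 without SW male 124 and DW male 87. So Lep kept a positive value within groups, while the values of Mest and Mki67 lay in the differences between groups. The value of Lep over deviations lay inside the range of most genes, given with the likeness ranking below. It therefore does not set Lep apart.

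Within the 8 DW animals r was 0.345 for Lep, -0.552 for Mest and -0.0311 for Mki67, and within the other 16 it was 0.555, -0.0922 and 0.321. The fat cell identity genes of this set were near 0 over the 24 animals, with r = -0.00126 for Pparg, 0.0672 for Adipoq and -0.104 for Plin1 (rho = 0.129, 0.0513 and -0.0896). Without the 2 animals farthest from each gene's median they were 0.186, 0.0287 and -0.304. Not every fat cell gene was near 0. Over the 17 mature adipocyte markers r ran from -0.62 (Slc2a4) to 0.36 (Cd36), with a median of -0.10. Over deviations the median of that list was -0.34, against 0.04 over all genes tested. Pnpla2 gave r = -0.181 and rho = -0.21, and r = -0.106 without the 2 farthest animals, DW females 82 and 83. Over deviations Adipoq gave -0.449, Pparg -0.336, Plin1 0.16 and Pnpla2 0.143.

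**Figure D3:**
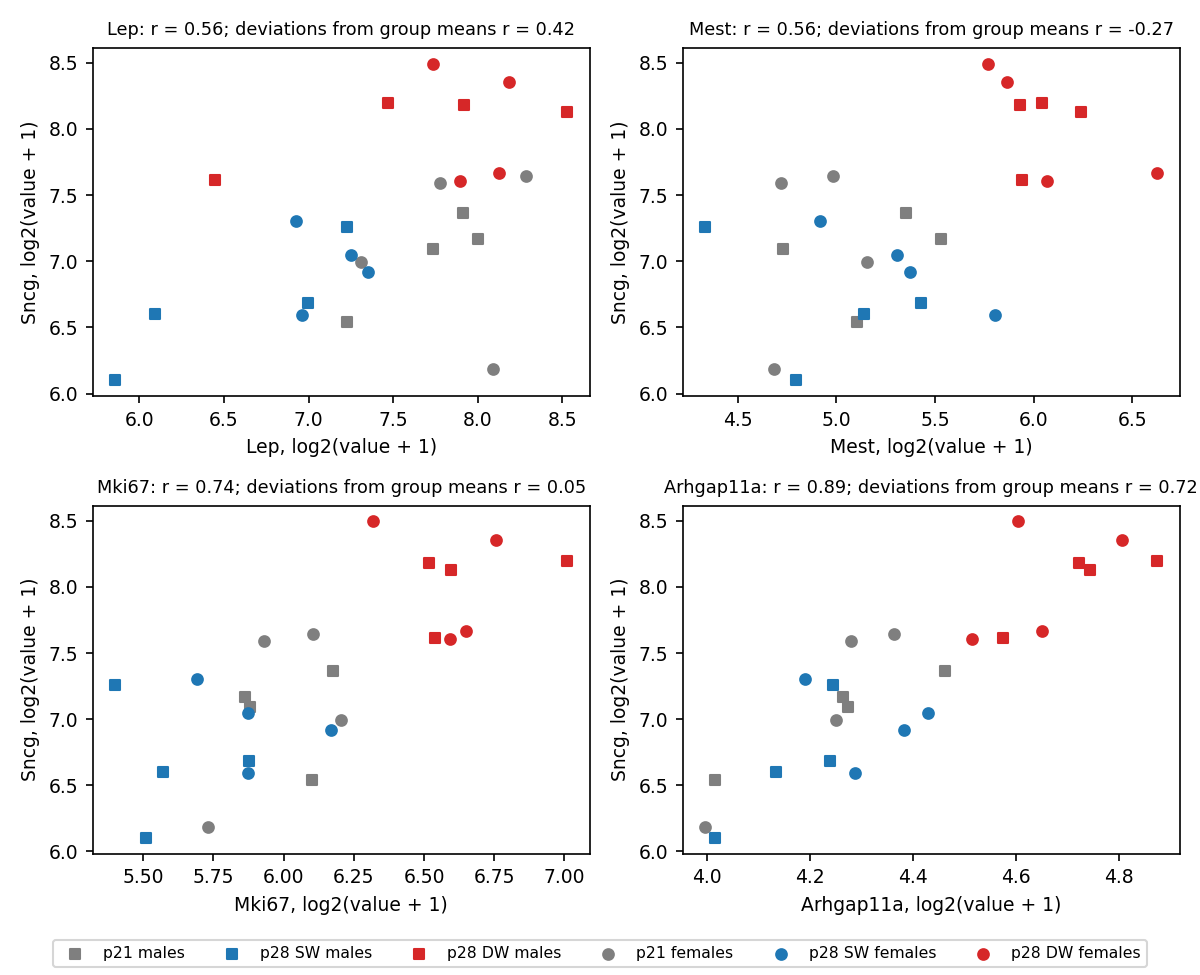
Sncg against Lep, Mest, Mki67 and Arhgap11a, both axes log2(value + 1), 1 point per mouse (squares males, circles females; grey p21, blue SW, red DW), with r over all animals and over deviations from group means above each panel. DW animals sit at the upper right for Mest, Mki67 and Arhgap11a, and for Arhgap11a the points also line up within groups, with 0.72 over deviations.

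Likeness was ranked over the 9941 other genes whose log2 level averaged 3 or more. Their median r with Sncg was -0.01, and the middle 90% lay between -0.487 and 0.414. Over deviations from group means the middle 90% lay between -0.642 and 0.591, a range that held the 0.42 of Lep. Arhgap11a, a GTPase-activating protein of dividing cells, was the most alike by both r (0.89) and rho (0.858), and kept 0.716 over deviations. It was 25.8 in DW male 79, 25.4 in 80, 22.8 in 86 and 28.3 in 87, and 23.3 in DW female 76, 27.0 in 77, 24.1 in 82 and 21.9 in 83. The other 16 animals had 15.0 to 21.1, so all DW animals lay above all others for Arhgap11a, and DW male 86 was lowest of its group for both genes. Arhgap11a was picked by its r with Sncg, so these shared traits follow in part from that choice.

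The next in order were Kif20b (a mitotic kinesin, r = 0.811), Bub1b (a spindle checkpoint kinase, 0.795), Nid2 (a basement membrane nidogen, 0.791), Gusb (a lysosomal glucuronidase, 0.779) and Ckap2l (a spindle protein, 0.779). Sec24d (a coat protein of vesicles leaving the endoplasmic reticulum, 0.756), Cdk5rap2 (a centrosome protein, 0.751), Mki67 and Dync1i2 (a dynein chain, 0.736, and 0.447 with GC-corrected values) completed the first 10. Over deviations from group means these values were 0.41 for Kif20b, 0.269 for Bub1b, 0.533 for Nid2, 0.666 for Gusb and 0.254 for Ckap2l. Gusb is an example of a small change with a high r: DW males had 58.02 ± 2.88 and SW males 49.8 ± 4.36 (SD, n = 4 each).

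The lowest correlations were those of Gsto1 (a glutathione transferase, r = -0.816), Bola3 (a factor for mitochondrial iron-sulfur clusters, -0.803), Pcbp2 (an RNA-binding protein, -0.801), 2010003K11Rik (-0.79) and Bag1 (a cochaperone of heat shock proteins, -0.788). In all, 12 genes were above 0.7 and 38 below -0.7. Over deviations the highest were Apobr (a lipoprotein receptor, 0.882), the chromatin remodellers Chd3 (0.879) and Chd7 (0.851), Ehbp1l1 (0.856) and the centriole gene Cntrl (0.851). Those 5 also followed the GC slope of the library over deviations, with 0.68 for Apobr, 0.55 for Chd3, 0.54 for Ehbp1l1, 0.44 for Chd7 and 0.35 for Cntrl, a relation whose part in their values was not tested. With GC-corrected values they remained between 0.805 and 0.861 over deviations. None of the first 10 by pooled r was among the first 10 over deviations. Pooled r mixes variation between and within groups, and Arhgap11a, first by pooled r, gave 0.716 over deviations, among the 97 genes above 0.7 there.

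**Figure D4:**
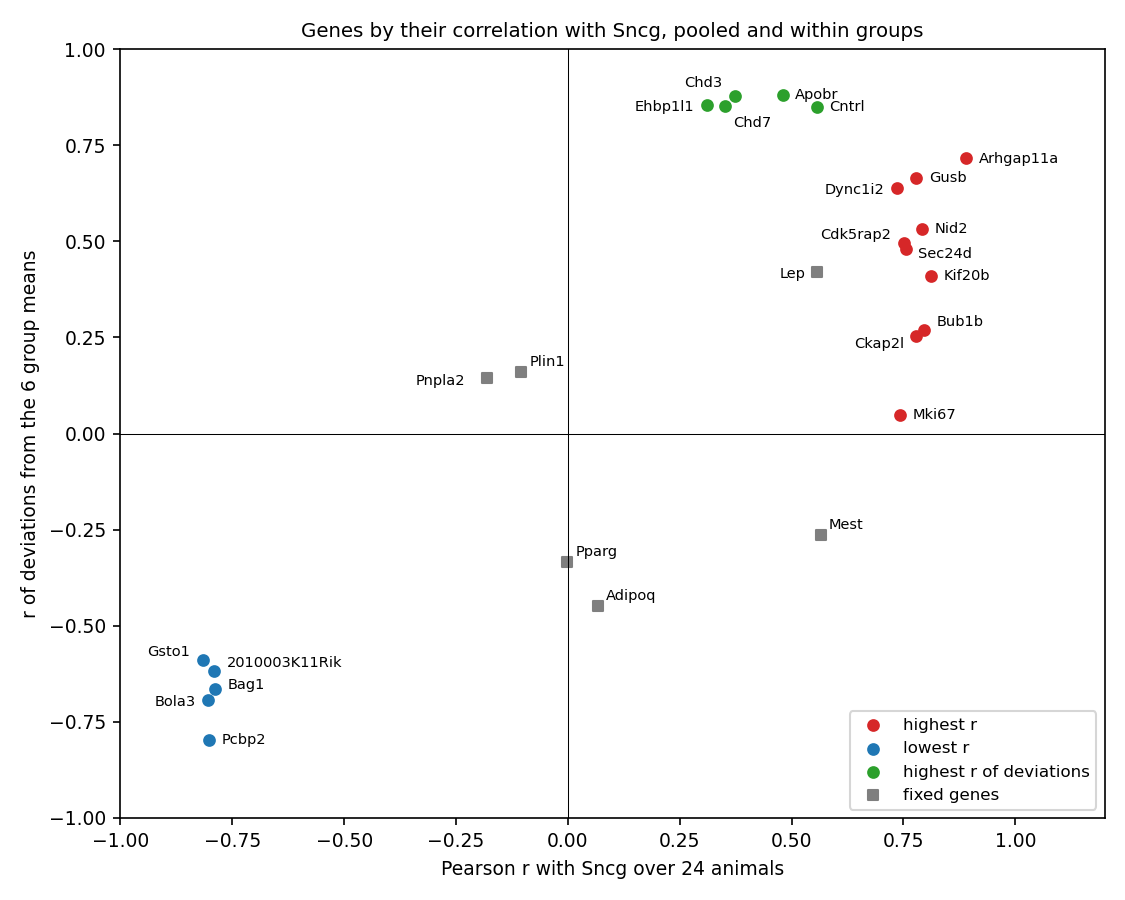
Pearson r with Sncg over 24 animals (horizontal) against r over deviations from the 6 group means (vertical) for the 10 genes with the highest r (red), the 5 with the lowest (blue), the 5 highest over deviations (green) and the fixed genes not among them (grey). Arhgap11a lies high on both axes, while Mki67 lies near 0 on the vertical one.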

How the data were processed

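The members and lists were chosen with earlier results of these data known. Poly(A) RNA of inguinal fat from 24 mice was read as 1 library each. Groups follow the labels for age, sex and weaning. For the p21 libraries the title gives a different age from the age label, and the label was followed. Per the submitters' processing notes, fastp, HISAT2, featureCounts, DESeq2 1.38.3 and the build mm10 were used, with no role or order given. The authors deposited a normalised signal for each gene in each sample, that is reads divided by a factor of each sample, and log2 fold changes between groups. Strand setting and annotation are not given in the sources used here.

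Dividing each sample by its smallest positive value gave whole reads (tolerance 0.001) for 100% of values, with 57600711 to 302145813 reads per library over the listed genes. Of 16208 rows, 90 repeated ones were left out. The design named edgeR for counts and limma for normalised values. The file held normalised values, so limma 3.58.1 (R 4.3.3) on log2(value + 1) was the main test: 6 group means, 24 samples, 18 residual degrees of freedom, eBayes with a trend, filterByExpr (minimum count 10) and Benjamini-Hochberg adjusted p under 0.05 over 16005 genes. The fit was also tested on simulated data. Replicates of a group were compared by chi-square on reads. None of 36 pairs fell under 75.6 per degree of freedom, and none were merged.

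Named genes are Sncg, the 11 lists, 7 fixed genes, all genes within 250 kb, and those with the 10 highest and 5 lowest r and the 5 highest r over deviations. Permutation p-values planned for these 7 correlations are not printed, because the weaning difference that chose Sncg enters them. One further gene of the plan and its list are not reported here. Alternatives were edgeR 4.0.16 and DESeq2 1.42.0 on recovered reads, other size factors, a pseudocount of 0.1, no filter, tissue covariates, fewer groups, each animal left out and, added after seeing the data, GC-corrected values and leaving out DW females 82 and 83. All libraries carry 1 lane label, so the labels gave no batch to fit, and other batches are not known. The running numbers of the libraries in the labels follow the groups in blocks. Any effect of that order therefore cannot be told apart from group. Sequences came from the RefSeq promoter table and gene models from GENCODE M21.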

Additional observations from a re-analysis of the deposited data

Results flagged for a closer look

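In 72 groups of 4 animals, 12 genes in 6 groups each, the gap of the highest or lowest animal to the next was compared with the group's range, and 3 groups passed the 95% critical value of Dixon's ratio. Chance gives about 1 in 20 groups. All values are log2(value + 1). Sncg itself was 7.62 in DW male 86, below the other DW males at 8.13 to 8.20. Mki67 was 7.01 in DW male 87, above 6.52 to 6.60 in the other DW males. Bub1b was 3.52 in SW female 74, below 3.76 to 3.80 in the other SW females.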

How the results depend on the processing

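The DW minus SW difference of Sncg kept its sign and moved by less than the within-group SD under every alternative run, and was 1.18 to 1.57 in males and 0.91 to 1.21 in females with 1 animal left out. Left-out ranges for age were -0.58 to -0.19 (SW males), -0.44 to 0.04 (SW females), 0.82 to 1.13 (DW males) and 0.62 to 1.11 (DW females). Sex at p21 ranged from -0.37 to 0.12, was 0.14 with tissue covariates and 0.00 after GC correction.

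Genes called for weaning in males (41) were 111 by DESeq2, 63 after GC correction, 98 with only the compared groups and 10 to 42 with 1 animal left out (10 without DW male 87). In females (204) they were 71 by edgeR, 61 with DESeq2 size factors in edgeR, 63 with a pseudocount of 0.1, 10 with covariates, 1 with only the compared groups, 7 without DW females 82 and 83, and 45 (without 82) to 1996 (without 76). With covariates, age called 505 in SW males (1901), 437 in SW females (1860) and 813 in DW males (2395), and with only the compared groups 822 in SW males and 495 in DW females (1938). Left-out ranges by age were 1150 to 1723 (SW males), 1394 to 1603 (SW females), 1236 to 2555 (DW males) and 1071 to 3123 (DW females). Sex at p21 (57) gave 15 by edgeR with either scaling, 115 by DESeq2, 92 with a pseudocount of 0.1, 4 with covariates, 5 with only the compared groups and 18 to 99 with 1 animal left out. The cause was not tested.

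Without DW females 82 and 83 the female weaning difference was 0.18 for Pnpla2. Pparg in males was -0.00 by edgeR, DESeq2 and DESeq2 size factors in edgeR, -0.03 with covariates and -0.09 to 0.13 with 1 animal left out (-0.04 without SW male 85, -0.05 without DW male 79). Correlations over deviations changed for Mest (-0.27), Adipoq (-0.45), Plin1 (0.16), Pnpla2 (0.14), Pparg (-0.34) and Mki67 (0.05). Pparg gave 0.13 as rho, 0.34 in p28 animals, 0.01 as log2 CPM and 0.05 after GC correction, and Adipoq -0.06 in p28 animals, -0.02 without p21 male 53 and -0.01 after GC correction.

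No paired analysis was possible because the animal numbers are not shared between groups. Sncg has at least 4833 reads per library, and each group holds 4 animals. What limits its values was not tested.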
